A study of Homo sapiens with 3 samples.

Results

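The 9 genes described here act in the presentation of peptides by MHC class I molecules on the cell surface. They are HLA-B, HLA-C and HLA-E, which encode class I heavy chains, B2M, TAP1, TAP2, TAPBP, ERAP1 and NLRC5. They were taken by name out of 20163 protein-coding genes of GENCODE 44 mapped to hg19, and every distinct peak over the gene or within 20 kb of it was assigned to them. ChIP-seq was done on untreated H2087 cells, an established line from a human lung adenocarcinoma, for histone H3 trimethylated at lysine 4 (H3K4me3, commonly found at active promoters) and acetylated at lysine 27 (H3K27ac, found at active promoters and enhancers). Each mark had 1 library, and the library of input chromatin was not used. No value below has a replicate, no test between marks or genes was made, and the intervals of shares cover counting error only.

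Class I molecules show peptides from inside the cell to cytotoxic T cells. Peptides made by the proteasome are carried into the endoplasmic reticulum by TAP1 and TAP2, trimmed there by ERAP1, and loaded with the help of tapasin (TAPBP) onto a heavy chain that is paired with beta-2-microglobulin (B2M). The transactivator NLRC5 acts together with factors that bind a conserved module of class I promoters, and interferon raises the activity of most of these genes. Loss of this pathway is a known route by which lung tumours escape T cells.

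Around the 9 genes, 18 of 18585 H3K4me3 peaks and 18 of 24096 H3K27ac peaks were found, which was 0.0969% and 0.0747% of the lists. For each mark, 9 of the 18 peaks lay over a gene of the group. Genes in the chromosome 6 locus are close together, so 4 H3K4me3 and 3 H3K27ac peaks counted for TAP1 as well as for TAP2. Measured from the canonical transcript starts, the nearest start belonged to 1 of the 9 genes for 9 H3K4me3 and 13 H3K27ac peaks, and to a neighbouring gene for 9 and 5. The lists do not give sequencing depth, so the lack of a peak can also mean too few reads.

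The promoters of the 3 heavy-chain genes carried shared short sequence blocks, which are shown because HLA-E had a peak downstream of its block whereas HLA-B and HLA-C had none. Positions are counted from the canonical start, with −1 as the base before it, and sequences are from the GRCh37 (hg19) assembly on the strand of the gene. The first block holds the letters TGACGC in capitals, the core of a cyclic AMP response type element, at chr6:31325045-31325074 (minus strand) for HLA-B, chr6:31239957-31239986 (minus strand) for HLA-C and chr6:30457167-30457196 (plus strand) for HLA-E.
HLA-B: ccaggatactcgTGACGCgtccccacttcc
HLA-C: cctgaatactcaTGACGCgtccccaattcc
HLA-E: cctggatactcaTGACGCagactcagttct
Of the 30 positions, HLA-B and HLA-C had the same base at 26, HLA-B and HLA-E at 22, and HLA-C and HLA-E at 23. TGACGC, read on both strands, occurred in 9.93% of the 250-base promoters of all protein-coding genes and in 4 of the 9 here, with TAP2 as the fourth.

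The second block holds CCAAT, the letters bound by nuclear factor Y, at chr6:31324995-31325024 (minus strand) for HLA-B, chr6:31239908-31239937 (minus strand) for HLA-C and chr6:30457217-30457246 (plus strand) for HLA-E. In B2M the only match lay on the other strand, at chr15:45003654-45003683 (plus strand), so its capitals read ATTGG.
HLA-B: tatctagagaagCCAATcagcgtcgccgcg
HLA-C: gttctagagaagCCAATcagcgtctccgca
HLA-E: tttctagagaagCCAATcagcgtcgccacg
B2M: ggccttgtcctgATTGGctgggcacgcgtt
Here HLA-B and HLA-E had the same base at 28 of 30 positions, and each of them shared 26 with HLA-C. The block printed is the one around the match nearest to the start. Further matches began at −81 and −74 (both ATTGG) in HLA-B and at −84 in HLA-E. In HLA-C they began at −192 and −80 (both ATTGG) and at −95. CCAAT on either strand was common, with a match in 34.1% of all promoters and in 6 of the 9.

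The third block holds AAANNGAAA, a part of the interferon-stimulated response element, and is shown for the genes of peptide transport and loading. It lay at chr15:45003562-45003591 (plus strand) for B2M, chr6:32821596-32821625 (minus strand) for TAP1, chr6:32806554-32806583 (minus strand) for TAP2 and chr6:33281856-33281885 (minus strand) for TAPBP.
B2M: agactctaagAAAAGGAAACTGAAAacggg
TAP1: aggcggccgcTTTCGATTTCGCTTTcccct
TAP2: tggggaagcgAAAGCGAAAgctgcccgagc
TAPBP: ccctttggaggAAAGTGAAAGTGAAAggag
In B2M, TAP1 and TAPBP 2 matches overlapped, and in TAP1 they lay on the other strand. The motif had a match in 7.89% of all promoters and in these 4 of the 9. The other motifs searched on both strands were TGACGTCA (2.40% of promoters, 0 of the 9), TTCNNNGAA (5.65%, 0 of the 9), GGGGNNTCC (8.19%, with HLA-B, TAPBP and ERAP1) and TATAAA (9.40%, with HLA-E and TAP2). No match of TGACGC is also a match of TGACGTCA, since the last letters differ. A match describes letters only, and no binding was measured.

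Most of the genes had both marks at their start. An H3K4me3 peak lay within 1 kb of the outer 5′ end of 6 of the 9 genes, which were HLA-E, B2M, TAP1, TAP2, TAPBP and ERAP1, beside 38.2% of all protein-coding genes (95% Clopper-Pearson interval 37.5 to 38.9). An H3K27ac peak lay there in 6 of the 9, which were B2M, TAP1, TAP2, TAPBP, ERAP1 and NLRC5, beside 23.6% of all genes (23.0 to 24.2). Both marks were present at 5 starts, those of B2M, TAP1, TAP2, TAPBP and ERAP1, beside 18.6% of all genes (18.0 to 19.1). HLA-E was the gene with H3K4me3 alone, a state of 19.6% of all genes, and NLRC5 the gene with H3K27ac alone, a state of 4.99%. HLA-B and HLA-C had neither. For TAP1 the H3K27ac call rested on a weak peak that lay nearer to the canonical start of PSMB9. With 500 bp in place of 1 kb, both marks were found at 3 starts, beside 12.6% of all genes. Among peaks at or above the median score of each list they were found at 2, beside 10.0%. With a group of 9, these shares describe the named genes and were not tested against the background.

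Over the wider window of the gene and 20 kb on each side, 7 of the 9 genes had an H3K4me3 peak (61.6% of all genes) and 6 had an H3K27ac peak (54.2%). In 6 of the 9, at least 1 H3K4me3 peak overlapped an H3K27ac peak, beside 32.3% of all genes. Among peaks at or above the median score this held for 3 of the 9, B2M, TAPBP and ERAP1, beside 18.6%. The bases in common came to 331 in B2M, 229 in TAP2, 512 in TAPBP over 2 pairs of peaks, 288 in ERAP1 and 274 near NLRC5. The TAP2 pair also fell in the window of TAP1, and the pair near NLRC5 lay at its neighbour CPNE2.

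**Figure D1:**
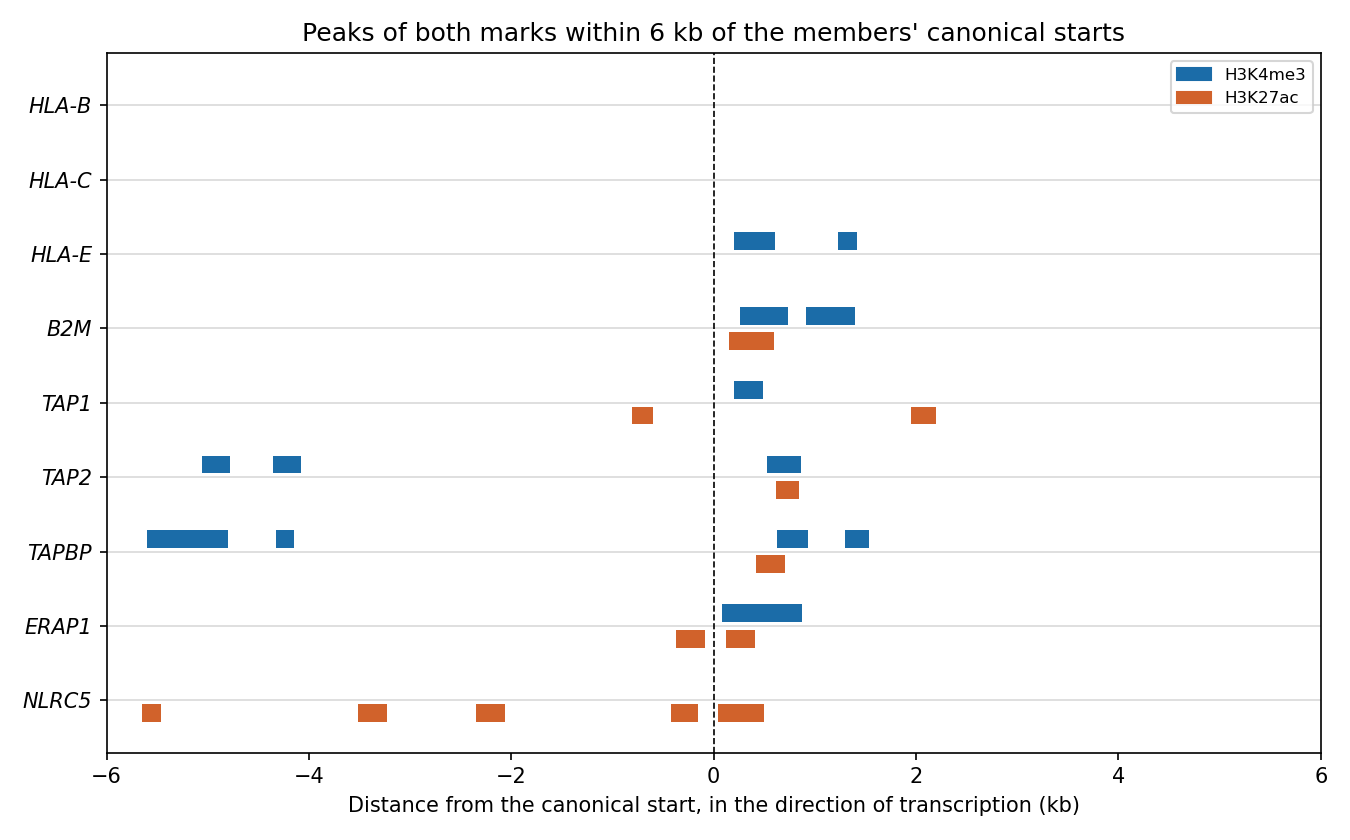
Peaks of H3K4me3 (blue) and H3K27ac (orange) drawn to scale by distance from the canonical transcript start in kb, with positive values in the direction of transcription, 1 row per gene. Within 1 kb all H3K4me3 blocks lie downstream of the start, HLA-B and HLA-C have no block, and NLRC5 has H3K27ac blocks only.

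Most peaks around these genes scored above the median of their list, and for H3K27ac none reached a score of 5. The deposited score of a peak was read as the −log10 of its q-value, which can be compared within a list but not between the lists. Its median over the 18 H3K4me3 peaks was 3.74 (range 2.23 to 8.41), beside 2.97 for the whole list, and over the 18 H3K27ac peaks 2.84 (1.36 to 4.39), beside 2.65. Above the list median were 13 of the 18 H3K4me3 and 12 of the 18 H3K27ac peaks. Of the peaks over a gene of the group, 6 of 9 for H3K4me3 and 7 of 9 for H3K27ac were above it. A score of 5 or more was reached by 4 of the 18 H3K4me3 peaks (16.7% of the list) and by 0 of the 18 H3K27ac peaks (8.84% of the list). The 4 include the peak of 6.22 whose nearest start is that of the neighbour WDR46. Median widths were 365.5 bp for H3K4me3 and 285.5 bp for H3K27ac, beside 305 and 284 bp in the lists.

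**Figure D2:**
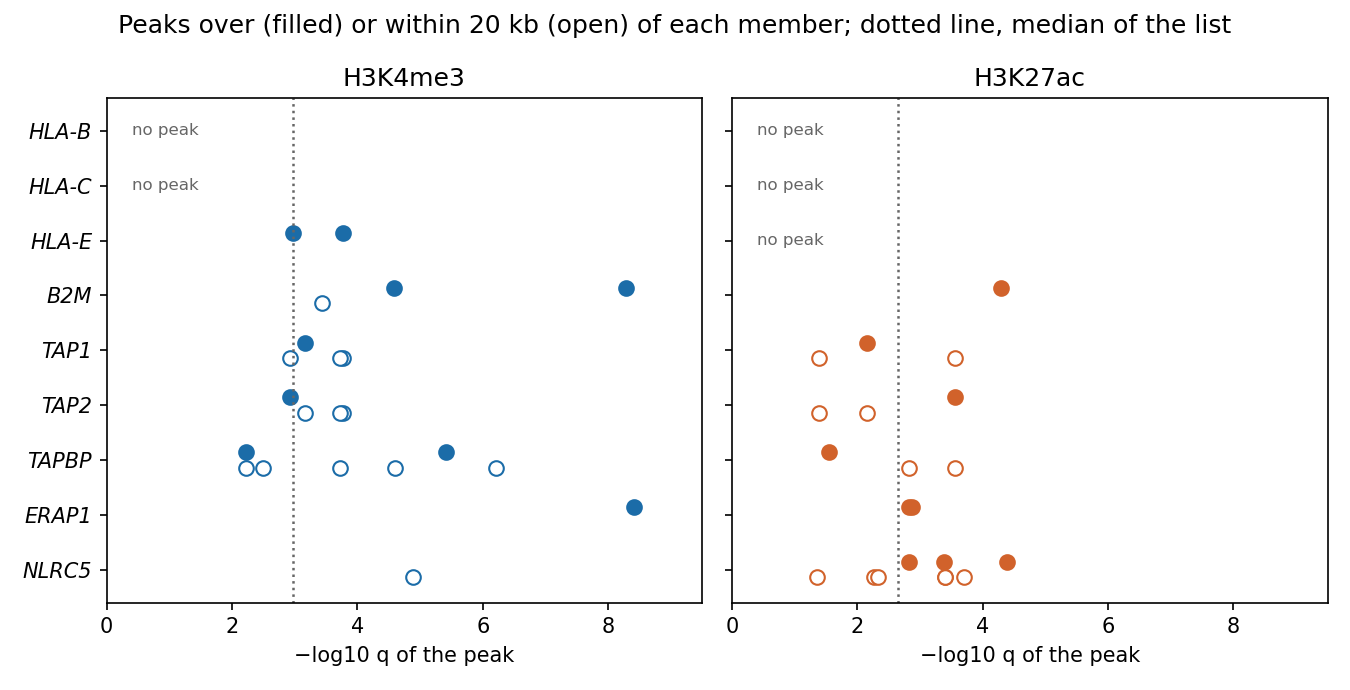
Score of each peak (−log10 q, horizontal axis) over a gene (filled points) or within 20 kb of it (open points), for H3K4me3 at left and H3K27ac at right, with the median of each list as a dotted line. ERAP1 and B2M hold the highest H3K4me3 scores, 8.41 and 8.29, and no H3K27ac score exceeds 4.39.

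HLA-B and HLA-C encode classical class I heavy chains, the variable chains that bind peptide and are read by T cell receptors and killer cell receptors. Neither gene had a peak of either mark over its body or within 20 kb. Measured from the canonical starts (chr6, position 31324956 for HLA-B and 31239869 for HLA-C, both on the minus strand), the nearest H3K4me3 peak was 47.3 kb away for HLA-B and 114 kb away for HLA-C. The nearest H3K27ac peak was 105 kb away for HLA-B and 67.2 kb for HLA-C. Among all protein-coding genes, 29.1% lay at least as far from any peak as HLA-B, and 24.7% at least as far as HLA-C.

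Both genes fell in 1 stretch of chr6:31172650-31372209, 199.6 kb long, with no peak of either mark. It held the canonical starts of 3 protein-coding genes, HLA-C, HLA-B and MICA, a gene for a stress-induced class I-like ligand of natural killer cells. MICA lies at the edge of the stretch, and the H3K4me3 peak that bounds it there, with a score of 2.21, was 838 bp from its canonical start. Stretches of this length were common on the chromosome, since 186 of its 1099 stretches between peaks were at least as long. The annotated gene of HLA-B reaches 9888 bp further upstream than its canonical start through a longer transcript, so the 1 kb around its outer start is not the promoter block printed above. With every transcript start of the 9 genes used in place of the outer one, HLA-B and HLA-C remained without a peak.

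Part of the sequence at these genes recurs in the genome, and reads from such sequence can be lost in alignment. Of the 32-base words taken every 20 bases within 1 kb of the canonical start, 13.1% in HLA-B, 14.1% in HLA-C, 19.2% in HLA-E and 10.1% in TAP2 occurred more than once in the assembly. Among the 3219 protein-coding genes with shares above 10% and up to 25%, the band of those 4 genes, 37.1% had H3K4me3 at the start (35.4 to 38.8) and 25.1% H3K27ac (23.6 to 26.7). Among the 9119 genes with no such word, the shares were 42.4% and 25.4%. H3K4me3 was thus somewhat less frequent in the band of the 4 genes, and H3K27ac was not. Above 25% repeated words, where none of the 9 genes lay, the shares were 18.0% and 11.5% up to 50%, and 3.82% and 2.69% beyond. In the same band as HLA-B and HLA-C, HLA-E had H3K4me3 and TAP2 had both marks at the start. The words were taken around the canonical start and the marks at the outer start, which is 9888 bp away in HLA-B. The words were counted in the primary assembly, so copies in alternative MHC haplotypes and differences of the H2087 alleles from the assembly are not covered. The part of read loss through repeated sequence or of the many alleles of HLA-B and HLA-C in the absence of peaks was not tested.

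**Figure D3:**
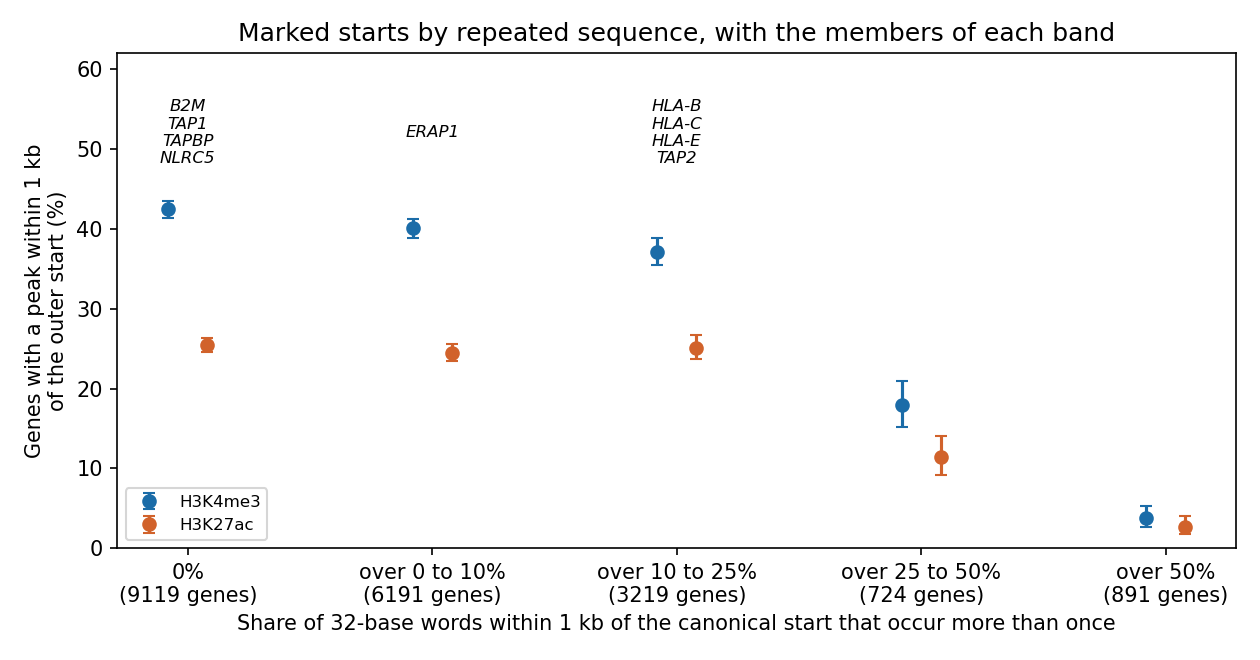
Share of protein-coding genes with a peak within 1 kb of the outer start (vertical axis, %) by the share of repeated 32-base words around the canonical start, for H3K4me3 (blue) and H3K27ac (orange), with 95% Clopper-Pearson intervals and the genes of each band written above it. In the 3 bands that hold the 9 genes the shares run from 37.1% to 42.4% for H3K4me3 and from 24.5% to 25.4% for H3K27ac, and both are lower above 25% repeated words.

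HLA-E encodes a non-classical heavy chain of low variability, which presents signal peptides to receptors of natural killer cells. It had 2 H3K4me3 peaks and no H3K27ac peak, and the nearest H3K27ac peak was 65.9 kb from the start. The first H3K4me3 peak, chr6:30457485-30457895, began 199 bp downstream of the start, was 411 bp wide and covered 270 coding bases of exon 2 and 141 bp of intron. It scored 3.76, above 65.6% of the H3K4me3 peaks in the list. The second, chr6:30458511-30458699, was intronic, 189 bp wide and scored 2.97, the median of the list. The promoter block with TGACGC and CCAAT shown above lay upstream of both peaks and outside them.

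B2M encodes the invariant light chain of every class I molecule, and its start carried strong H3K4me3. The peak at chr15:45003979-45004444, in the first intron from 264 to 729 bp downstream of the start, scored 8.29, higher than 97.1% of the list. A second intronic peak at chr15:45004630-45005115 scored 4.58. The H3K27ac peak, chr15:45003861-45004309, scored 4.29, higher than 84.4% of its list, and shared 331 bp with the first H3K4me3 peak. Among all genes with a mark at the start, the B2M peak was higher than in 94.6% for H3K4me3 and 75.0% for H3K27ac. One further H3K4me3 peak in the window, with a score of 3.43, was 17.7 kb from the start and had TRIM69 as its nearest start.

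TAP1 and TAP2 encode the subunits of the transporter that moves peptides into the endoplasmic reticulum, and lie side by side on chromosome 6 with the immunoproteasome genes PSMB8 and PSMB9. At TAP1, the H3K4me3 peak chr6:32820992-32821281 lay in coding sequence of exon 1 and scored 3.16, higher than 53.7% of the list. The H3K27ac peaks over and just before TAP1 had scores below the median of their list. The peak chr6:32819283-32819532 was intronic, 1949 bp from the start, and scored 2.16. The peak chr6:32822086-32822289 lay upstream, between TAP1 and PSMB9, and scored 1.39, higher than only 1.66% of the list. The edge of this upstream peak was 117 bp from the canonical start of PSMB9 and 605 bp from that of TAP1, so the assignment to TAP1 rests on the window alone.

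At TAP2, both marks met in exon 2. The H3K4me3 peak chr6:32805649-32805990 scored 2.93, higher than 44.9% of its list, and the H3K27ac peak chr6:32805672-32805900 scored 3.55, higher than 73.0% of its list. The H3K27ac peak lay entirely inside the H3K4me3 peak, with 229 bp in common. TAP1 and TAP2 thus ranked in opposite order in the lists, with the higher H3K4me3 score at TAP1 and the higher H3K27ac score at TAP2, without a replicate to judge either difference. Between the 2 genes, H3K4me3 peaks at chr6:32810594-32810869 and chr6:32811298-32811574 had PSMB8 as the nearest start and scored 3.76 and 3.72.

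TAPBP encodes tapasin, which holds the empty class I molecule at the transporter until a peptide is bound. Its H3K4me3 peak chr6:33280926-33281225 reached into exon 3 with 232 coding bases, began 630 bp from the start and scored 5.41, higher than 85.5% of the list. A second peak, chr6:33280321-33280554, was intronic and scored 2.23. The H3K27ac peak chr6:33281153-33281441 scored 1.55, higher than only 8.32% of its list, and shared 73 bp with the stronger H3K4me3 peak. TAPBP therefore had H3K4me3 in the upper part and H3K27ac in the lowest part of their lists. Its window held the most H3K4me3 peaks of the 9 genes, more than in 96.5% of protein-coding genes, but the other peaks lay nearest to starts of neighbours, among them WDR46, RGL2, ZBTB22 and DAXX. The highest of these, at chr6:33256123-33256627 near WDR46, scored 6.22. An H3K27ac peak of the window with B3GALT4 as its nearest start scored 2.82. At DAXX an H3K27ac peak of 439 bp lay entirely inside an H3K4me3 peak, which made the second overlapping pair of the window.

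ERAP1 encodes the aminopeptidase that shortens peptides to the length class I molecules bind. It had the widest and highest H3K4me3 peak over a gene of the group, chr5:96142778-96143569, which was 792 bp wide, had 2 summits and scored 8.41, higher than 97.5% of the list. The peak ran from 79 to 870 bp downstream of the start and covered 7 bp of the 5′ untranslated part of exon 1 and 785 bp of intron. Of its 2 H3K27ac peaks, chr5:96143242-96143529 scored 2.82 and lay inside the H3K4me3 peak over all of its 288 bp. The other, chr5:96143736-96144021, lay upstream of the canonical start and scored 2.86. Both H3K27ac peaks were close to the median of their list, 2.65. Of the words in the upstream peak, 23.1% were repeated in the genome, and no word in the other peaks of ERAP1 was.

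NLRC5 encodes the transactivator of class I genes, and was the gene of the group with the most H3K27ac and no H3K4me3 of its own. A series of 7 H3K27ac peaks spanned 27.7 kb, chr16:57017816-57045540, from upstream of the start into the gene, with 2939 bp under peaks and 0 H3K4me3 peaks in between. It comprised all H3K27ac peaks from 10 kb before to 25 kb after the start, limits that were set after the peaks had been seen. The outermost upstream peak of the series scored 1.36, higher than only 0.876% of the list. In the outermost downstream peak, 30.8% of the words were repeated in the genome. The strongest and widest, chr16:57033259-57034430, lay in an intron 9790 bp downstream of the start, was 1172 bp wide with 2 summits and scored 4.39, higher than 87.3% of the list. At the start itself, chr16:57023514-57023967 began 45 bp downstream and scored 3.39. Before the annotated gene lay a peak of 262 bp with a score of 3.40. Further upstream, a peak at chr16:57021116-57021403 scored 3.71, but 69.2% of its words were repeated in the genome. The window of NLRC5 held 9 H3K27ac peaks, 2 of them nearest to the start of CPNE2, and 9 or more were found for 796 protein-coding genes (3.95%). Of those 796, 553 (69.5%) had H3K4me3 at the start, whereas the nearest H3K4me3 peak of NLRC5 was 56.6 kb from its start. Over all 4753 genes with H3K27ac at the start, 21.2% had no H3K4me3 there. NLRC5 is long, at 94047 bp, and a long gene has a wider window in which peaks are counted.

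Most of the peaks at these starts lay downstream of them, as in the lists at large. Within 1 kb of the canonical starts, 7 H3K4me3 peaks in 6 genes were found, and all 7 lay wholly downstream, beside 66.9% of such peaks over all protein-coding genes. Of the 8 H3K27ac peaks in 6 genes, 5 lay wholly downstream, beside 64.5% over all genes, and 3 wholly upstream, at TAP1, ERAP1 and NLRC5. No peak of either mark covered a canonical start of the 9 genes, and over all genes only 5.35% of these H3K4me3 and 3.51% of these H3K27ac peaks did. The 250 bases upstream of the start, which hold the motif blocks, were free of peaks in 7 of the 9 genes and in 90.8% of all protein-coding genes, and H3K27ac covered 163 of them in ERAP1 and 94 in NLRC5.

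The strength of the start peaks set the genes in a different order for each mark. For H3K4me3, the score of ERAP1 was above that of 95.4% of all marked genes, followed by B2M at 94.6%, TAPBP at 75.1%, HLA-E at 48.2%, TAP1 at 35.5% and TAP2 at 27.8%. For H3K27ac, B2M came first at 75.0%, then TAP2 at 59.8%, NLRC5 at 56.6%, ERAP1 at 47.1%, TAPBP at 5.20% and TAP1 at 0.778%. B2M was in the upper part for both marks. Neighbours in either order cannot be separated without replicates.

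Of the 9 genes, 6 lie in the MHC on chromosome 6. In the 3.59 Mb from HLA-F to TAPBP (chr6:29690552-33282061), 51 of 150 protein-coding starts had H3K4me3 (34.0%, 26.5 to 42.2), beside 262 of 898 on the remaining chromosome (29.2%, 26.2 to 32.3). H3K27ac was found at 33 of the 150 (22.0%, 15.7 to 29.5), beside 107 of the 898 (11.9%, 9.87 to 14.2). The intervals of the stretch and of the remaining chromosome overlapped for H3K4me3 and did not for H3K27ac, and neighbouring starts that share a peak are not independent. Over all protein-coding genes the shares were 38.2% for H3K4me3 and 23.6% for H3K27ac, both within the intervals of the stretch. With 500 bp in place of 1 kb the H3K27ac intervals overlapped, at 11.3% (6.74 to 17.5) in the stretch and 8.69% (6.93 to 10.7) outside it. Among peaks at or above the median score they did not, at 12.7% (7.80 to 19.1) and 5.23% (3.87 to 6.90). Without the 6 genes the shares in the stretch were 32.6% and 20.8%. The region without peaks around HLA-B and HLA-C thus lay inside a locus whose share of marked starts was not below that of the remaining chromosome.

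Genes that work with the 9 in the same pathway were counted by lists. Over all protein-coding genes, 38.2% had H3K4me3 and 23.6% H3K27ac at the outer start. The immunoproteasome subunits and their activator make class I peptides, and 5 of 5 had H3K4me3 and 3 of 5 H3K27ac at the outer start. For PSMB8 and PSMB9 the H3K4me3 call rested on the same peak, with a score of 3.72, so it was counted for both. PSME1, an activator subunit, scored 6.66 for H3K4me3 and 8.31 for H3K27ac, PSME2 scored 9.43 and 4.30, and PSMB10 2.63 and 3.23. Chaperones and trimming enzymes had H3K4me3 in 5 of 5 and H3K27ac in 2 of 5. Calreticulin (CALR), which holds the heavy chain during loading, scored 8.36 for H3K4me3 with no H3K27ac peak at the start, and ERAP2, the partner of ERAP1, scored 4.13 with none.

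Factors that bind class I promoters had H3K4me3 in 5 of 7 and H3K27ac in 4 of 7. Of the RFX complex, which works with NLRC5, RFX5 had neither mark, RFXAP had H3K4me3 (3.76) and RFXANK had H3K27ac (6.52). NFYB and NFYC, subunits of the factor that binds CCAAT, and CREB1 had both. Genes of interferon signalling had H3K4me3 in 2 of 8 and H3K27ac in 3 of 8. These counts depended on the start used, since at canonical starts H3K4me3 was found in 3 of 8 and H3K27ac in 6 of 8. IRF9, which carries the interferon signal to DNA, scored 3.20 for H3K4me3 and 3.40 for H3K27ac at the outer start, and the receptor gene IFNGR1 had H3K27ac there (3.55). IRF1, an interferon-induced activator of class I genes, had an H3K4me3 peak of 5.61 and an H3K27ac peak of 2.23 within 1 kb of its canonical start but none at its outer start.

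The other class I-like genes HLA-F, HLA-G, MICA and MICB had H3K4me3 in 0 of 4 and H3K27ac in 1 of 4 at the outer start. At the canonical start, H3K4me3 was found in 3 of 4 and H3K27ac in 1 of 4. HLA-G was the gene with H3K27ac, at a score of 1.89. The stress-induced member MICB had an H3K4me3 peak of 6.39, 193 bp from its canonical start. The MHC class II list held 5 genes for the chains that present peptides on antigen-presenting cells, the invariant chain gene CD74 and the transactivator gene CIITA. All 7 had neither mark within 1 kb of the outer or the canonical start. The nearest H3K27ac peak of CD74 was 1827 bp from its canonical start, and the nearest H3K4me3 peak of CIITA 2007 bp. For CD74 and CIITA the result thus depended on the 1 kb limit. HLA-DRA lay in a stretch of 645 kb without peaks, with 12 coding starts, inside the MHC. Of the 1099 stretches between peaks on chromosome 6, 63 were at least as long. Beside the 0 of 7 of the class II list, H3K4me3 was present at 6 of the 9 class I presentation genes and at 38.2% of all protein-coding genes. Among the heavy-chain genes of the 9, only HLA-E had it. The difference between the lists was not tested.

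**Figure D4:**
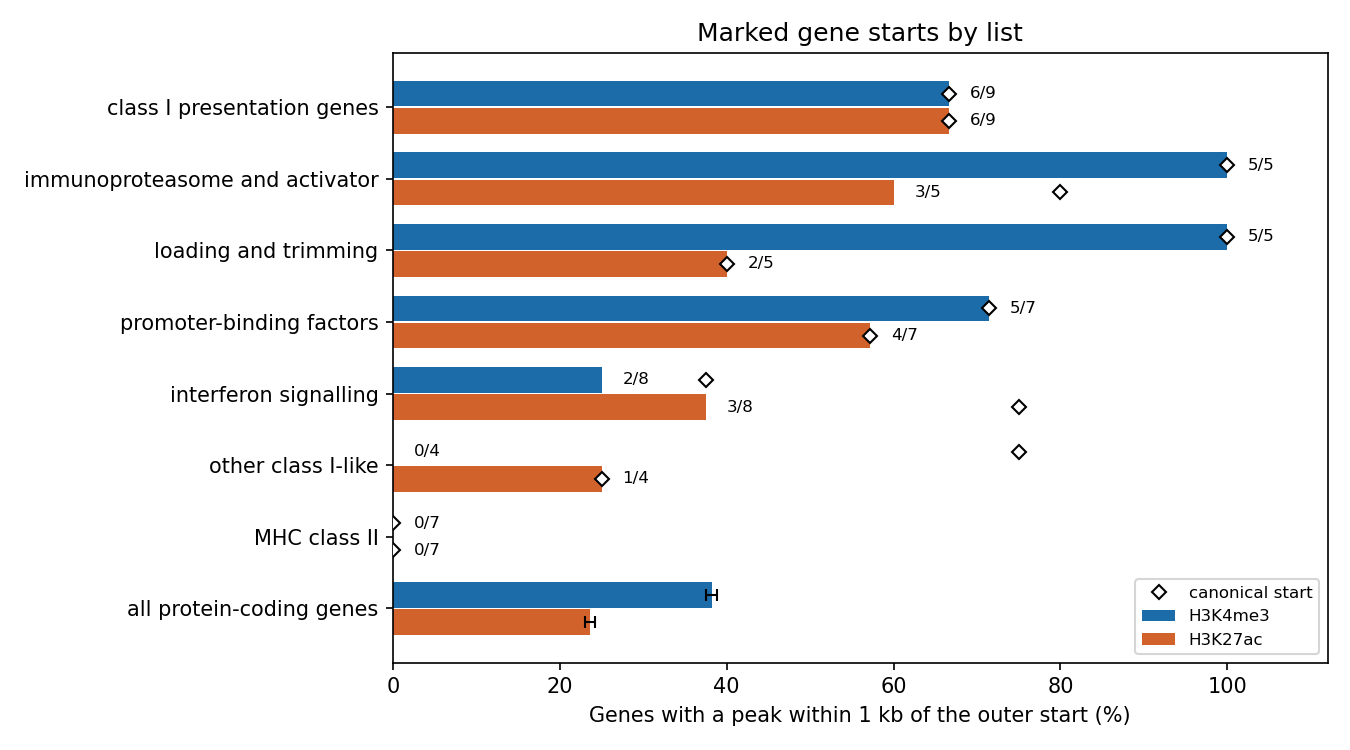
Share of each list with a peak within 1 kb of the outer start (bars, %) and of the canonical start (diamonds), for H3K4me3 (blue) and H3K27ac (orange), with counts beside the bars and 95% Clopper-Pearson intervals for all protein-coding genes. The class I presentation genes stand at 6 of 9 for each mark, and the class II list at 0 of 7.

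The markers of the cell line were compared with its label. Of 7 epithelial and lung adenocarcinoma markers, 6 had H3K4me3 and 5 had H3K27ac at the outer start, with scores of 9.85 and 6.90 at KRT7, and NAPSA had neither. The 4 leukocyte markers and CDH5, the endothelial marker found in the annotation, had neither mark there. Of 2 fibroblast markers, PDGFRA had H3K4me3 and COL1A1 neither mark. The nearest peaks of COL1A1 lay 1392 bp (H3K4me3) and 2118 bp (H3K27ac) from its outer start, beyond the 1 kb limit. The shares over all protein-coding genes were 38.2% for H3K4me3 and 23.6% for H3K27ac, and the marker counts were not tested against them.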

How the data were processed

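ChIP-seq was performed in the H2087 lung adenocarcinoma cell line with 1 library each for H3K4me3 and H3K27ac. According to the submitters' processing notes and the study's methods, bcl2fastq 1.8.4, Bowtie 1.1.1 (alignment to hg19), SAMtools 1.2, Picard 1.118, MACS2 2.1.0 (peak calling) and ChIPseeker 1.6.6 were used. The study's methods say that input chromatin was kept for normalization. The threshold, the treatment of duplicates, whether the input served as control in peak calling and whether the index held alternative MHC haplotypes are not given in the sources used here. The last column of the lists deposited by the authors has no header and was read as −log10 q from its values, the smallest of which were 1.31 (H3K4me3) and 1.30 (H3K27ac), beside 1.30 for a q of 0.05. No read counts are held in the lists, so depth is unknown.

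Entries that shared an interval, 20282 for H3K4me3 and 25275 for H3K27ac before joining, were taken as 1 peak with the highest score. Genes and canonical transcripts came from GENCODE 44 mapped to GRCh37. The outer start of a gene is its outermost annotated 5′ end, and a start was called marked with a peak within 1 kb. Peaks overlapped with at least 1 bp in common. Shares have exact Clopper-Pearson 95% intervals. Promoters were the 250 bases before the canonical start, read from the GRCh37 assembly. Scripts were tested on simulated data and run in Python 3.11.15 with pandas 2.3.3, NumPy 2.4.6, SciPy 1.17.1, numba 0.67.0 and matplotlib 3.10.9.

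The named genes were the 9 genes of the group with every peak in their windows, the genes with the nearest canonical starts, and values for 2 to 4 genes of each pathway list, with some further list genes by name or count only. The genes, lists, motifs and tests were chosen with earlier results of these data known. PECAM1, an endothelial marker, was not found as a protein-coding gene in the annotation. Alternatives were other start distances, transcript starts, windows and the upper part of each list by score. The sequence of 1 peak is not reported here.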

Additional observations from a re-analysis of the deposited data

How the results depend on the processing

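No paired analysis was possible because neither mark was repeated, which also means that no replicate could be left out. Across 11 results and 59 alternatives, 30 values kept within the tolerance (a factor of 1.5 for counts, the 95% interval for shares) and 29 moved. Changes of direction were not looked for. The counts of genes in the group with marked starts or overlapping peaks stayed within the tolerance in 17 of 20 alternatives. A fall from 6 to 4 of the 9 genes counted as within it, and alternatives that only widen a distance or add starts cannot lower a count. Both marks were found at 5 starts, at 3 with 500 bp in place of 1 kb, and at 2 in the upper part of each list (score at or above the median). Genes with overlapping peaks fell from 6 to 3 in the upper part of the lists. With 500 bp, 3 kb, every transcript start, the upper part of the lists and canonical starts, the share of all genes with H3K4me3 (38.2%) became 30.8%, 43.3%, 45.4%, 26.8% and 41.3%, that with H3K27ac (23.6%) became 17.8%, 29.9%, 30.7%, 14.9% and 25.2%, and that with both (18.6%) became 12.6%, 24.3%, 25.3%, 10.0% and 20.4%. In the stretch from HLA-F to TAPBP, H3K4me3 (34.0%) became 23.3%, 46.0%, 42.7% and 24.0% under the first 4 of these, and H3K27ac (22.0%) became 11.3% with 500 bp, 30.0% with 3 kb and 12.7% in the upper part. Over the gene bodies alone, 9 peaks of each mark remained of 18, and within 50 kb 28 H3K4me3 peaks were found. Counted by the nearest canonical start, 9 H3K4me3 peaks belonged to the genes. Canonical starts and the nearest canonical start were chosen after seeing the data. The shares of the remaining chromosome 6 under these settings and the shares of peak positions, peak-free promoters and overlapping upper-part peaks over all genes were also computed after seeing the data. The H3K27ac share of the stretch was above that of the remaining chromosome under every start setting, with overlapping intervals at 500 bp. It was below that of all protein-coding genes under every start setting except 3 kb, where it was 30.0% beside 29.9%. Wider distances and more starts count more genes by construction.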
